A study of Mus musculus with 6 samples.

Results

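A set of 10 genes of the immunoproteasome and of antigen peptide loading was examined in hepatic stellate cells, which lie along the liver sinusoids, store vitamin A and turn into scar-forming myofibroblasts after injury. They were chosen by gene symbol: Psmb8, Psmb9, Psmb10, Psme1, Psme2, Tap1, Tap2, Tapbp, B2m and Cd74. Of these 10 genes, 9 had a probe of that symbol, with 1 probe each among the 23473 probes of the table, and Psme2 had none and was not analysed here. The arrays were 3 of Sept4 knockout mice (SEPT4-KO) and 3 of wild-type mice. Mice of both genotypes had been given carbon tetrachloride (CCl4), a hepatotoxin, to bring about cirrhosis, so no uninjured liver was compared. Sept4 encodes a septin, a GTP-binding protein that forms filaments. The sources used here do not give the strain, the age, the extent of the deletion or whether an array held 1 mouse or a pool. The p-values therefore reflect how far these arrays spread, which may be technical, and their small number limits the precision.

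The proteasome is a barrel-shaped protease that cuts cytosolic proteins into peptides. In cells exposed to interferon gamma its 3 constitutive catalytic subunits are exchanged in newly built particles for Psmb8, Psmb9 and Psmb10, which changes the cleavage pattern, and the PA28 activator, built of Psme1 and Psme2, docks on its ends. The resulting peptides are pumped into the endoplasmic reticulum by the transporter Tap1-Tap2 and are loaded with the help of tapasin (Tapbp) onto class I molecules, whose light chain is B2m. Cd74, the invariant chain, belongs to the other branch of presentation and guards the groove of class II molecules. Stellate cells have been described as able to present antigen in the injured liver.

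The values are normalised log2 signals, with an array median of 5.02 on each array. No member sat at the floor of an array, where 940 to 1255 probes did. The highest values were 16.6 to 16.8 on knockout arrays and 15.7 to 15.8 on wild-type arrays, and the median difference of all probes was 0.12, so small differences are read against that shift. The sources used here name no batch, so a batch effect and genotype cannot be told apart. No probe is named for Sept4, so the deleted gene could not be used to check the labels. Of 14 stellate cell markers, all measured, 10 rose and 2 fell, where 26.7% of all probes rose and 16.0% fell. Their summed linear signal was 65690 to 67870 on knockout and 50940 to 57100 on wild-type arrays. Of these, named after their values were seen, the collagen gene Col3a1 averaged 14.22 in knockout and 12.13 in wild-type cells, and Acta2, the smooth muscle actin of myofibroblasts, 14.69 in knockout and 15.25 in wild-type cells. Lrat, which makes the stored retinyl esters, averaged 7.46 in knockout and 5.05 in wild-type cells. The macrophage marker Marco was also bright in both genotypes, with means of 10.45 in knockout and 10.52 in wild-type cells. Marco, named after its value was seen, was the brightest of 13 measured macrophage markers. The others ranged from Fcer1g, at 10.15 in knockout and 9.41 in wild-type cells, down to Timd4, at 2.53 in both. In such bulk samples, fewer cells of a type and less RNA per cell cannot be told apart.

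Most members were higher in the knockout. Of 9 measured, 7 rose, 1 fell (Cd74) and 1 did not pass (Tap1), at an adjusted p of 0.05 in limma, with Benjamini-Hochberg adjustment over all probes. Across all probes, 26.7% rose, 16.0% fell and 42.7% passed in either direction. The 7 members that rose lay in the brighter 50% of probes, where 49.0% of probes rose. The values of the genotypes did not overlap for 8 of the 9 members, against 56.2% of all probes, and 7 of these lay higher in the knockout, against 34.5% of all probes. The median difference of the 9 members was 0.56 on the log2 scale, against 0.12 over all probes. The rises were 1.03 to 1.20 for Psmb10, Psme1 and Psmb8, and 0.49 to 0.59 for Psmb9, Tapbp, Tap2 and B2m.

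**Figure D1:**
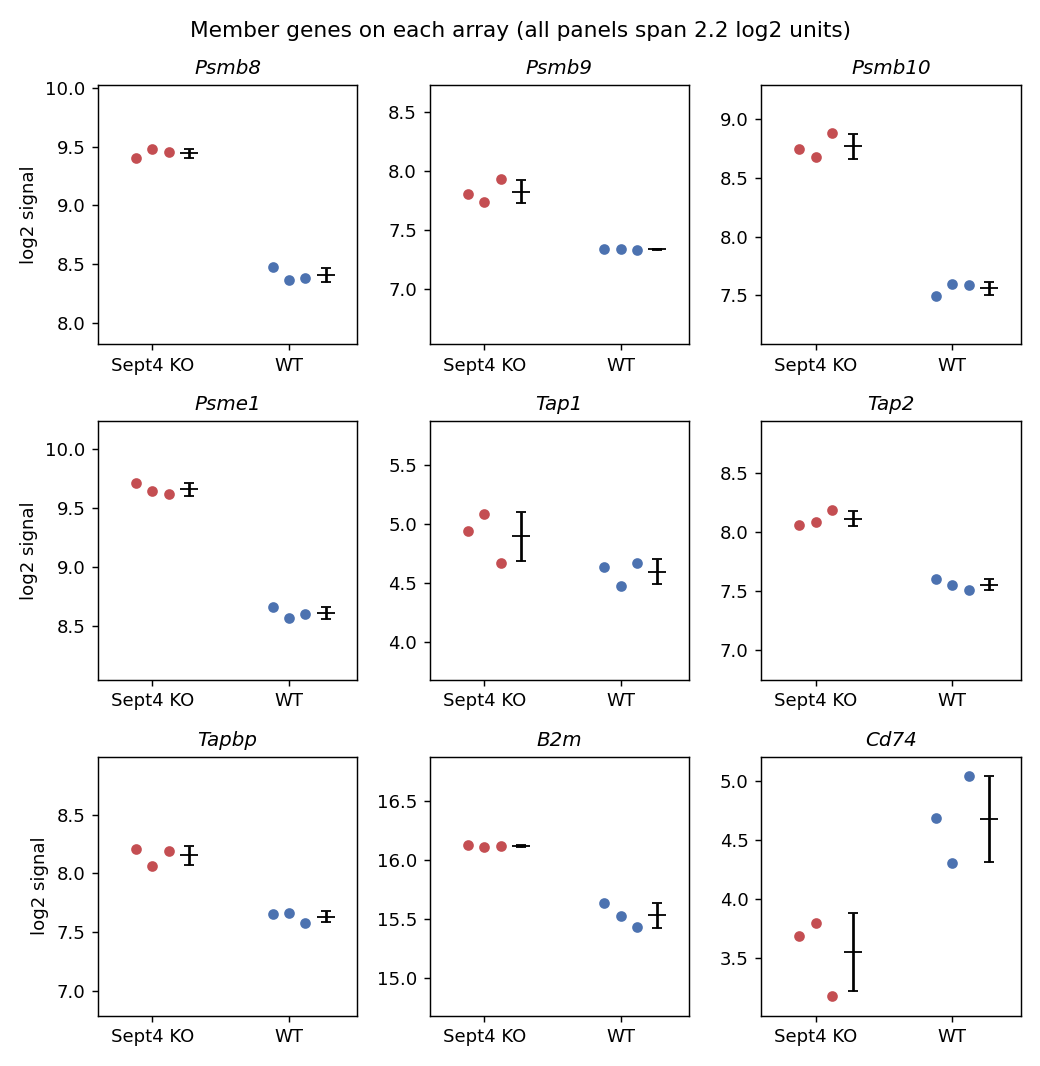
Log2 signal of the 9 measured members on each of the 3 Sept4 knockout arrays (red, left) and 3 wild-type arrays (blue, right), with the group mean and SD in black; every panel spans the same number of log2 units on its own level. The knockout points lie above the wild-type points in 7 panels, overlap with them for Tap1 and lie below them for Cd74.

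Among the catalytic subunits, Psmb10, which takes the trypsin-like site, had log2 signals of 8.74, 8.67 and 8.88 in knockout cells, against 7.50, 7.60 and 7.59 in wild-type cells. All knockout arrays lay over 1 log2 unit above the highest wild-type array. The difference was 1.20 ± 0.07 (SE), or 2.30-fold (limma, adjusted p = 0.000571). This was the largest rise of the 9 members, and 95.7% of all probes had a smaller difference.

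Psmb8, which takes the chymotrypsin-like site, had signals of 9.40, 9.48 and 9.45 in knockout cells and 8.48, 8.37 and 8.39 in wild-type cells. The groups did not overlap, and the spread within each was under 0.1 on the log2 scale (SD). The difference was 1.03 ± 0.05 (SE), or 2.04-fold (limma, adjusted p = 0.000496). The 250 bases upstream of its RefSeq start site, chr17:34197945-34198194 on the + strand of GRCm38.p6, are shown because they held a match to the gamma-activated sequence, the pattern that STAT factors bind, searched as TTCNNNGAA on both strands. Capitals mark it.
Psmb8: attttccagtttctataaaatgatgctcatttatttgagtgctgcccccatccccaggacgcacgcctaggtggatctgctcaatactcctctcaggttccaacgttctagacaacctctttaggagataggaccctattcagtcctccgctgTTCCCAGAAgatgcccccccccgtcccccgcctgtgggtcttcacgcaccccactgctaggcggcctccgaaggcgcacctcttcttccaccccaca
This match occurred in 8.30% of 32841 promoter windows of the same length, each running from 250 bases before to 50 after a start site, and in 1 of the 9 windows found for 8 member genes, that of Psmb8. No window was used for Tap2 and Cd74.

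Psmb9, which takes the caspase-like site, also rose. Its signals were 7.80, 7.74 and 7.93 in knockout cells, against 7.33, 7.34 and 7.33 in wild-type cells. The wild-type arrays were nearly equal, and all knockout arrays lay above them. The difference was 0.49 ± 0.06 (SE), or 1.40-fold (limma, adjusted p = 0.00341). The 95% confidence intervals of the differences of Psmb9, from 0.32 to 0.65, and of Psmb8, from 0.89 to 1.17, did not meet, although the difference between them was not itself tested.

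None of the constitutive subunits that these proteins replace rose. Psmb5, the constitutive chymotrypsin-like subunit, had signals of 13.02, 13.08 and 13.13 in knockout cells and 13.38, 13.41 and 13.33 in wild-type cells, and fell by 0.30 ± 0.05 (SE), at an adjusted limma p of 0.00915. Psmb7, the trypsin-like subunit, had signals of 9.21, 9.28 and 9.38 in knockout cells and 9.74, 9.79 and 9.73 in wild-type cells, and fell by 0.47 ± 0.06 (SE), at an adjusted limma p of 0.00353. Both had groups that did not overlap. Psmb6, the caspase-like subunit, differed by 0.06, with a 95% confidence interval of -0.10 to 0.23 (adjusted p = 0.489). After quantile normalisation Psmb6 differed by -0.14 (adjusted p = 0.0340), and after cyclic loess by -0.19 (adjusted p = 0.0167), so its direction depends on the scaling.

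The transcripts of each immunoproteasome subunit and of the constitutive subunit it replaces were compared by the difference of their log2 signals within each array, which cancels a shift common to that array. A change in it shows unequal change of both transcripts, and the make-up of assembled proteasomes was not measured. For Psmb10 minus Psmb7 it was -0.46, -0.61 and -0.50 in knockout cells, against -2.24, -2.19 and -2.14 in wild-type cells, a change of 1.67, or 3.19-fold in the ratio. For Psmb8 minus Psmb5 it averaged -3.63 ± 0.04 in knockout cells and -4.96 ± 0.07 in wild-type cells (SD, n = 3 each), a change of 1.33, or 2.51-fold. For Psmb9 minus Psmb6 it averaged -4.98 ± 0.08 in knockout cells and -5.40 ± 0.08 in wild-type cells (SD, n = 3 each), a change of 0.43, or 1.35-fold. In all 3 pairs every knockout array lay above every wild-type array. By exact permutation over arrays, two-sided, p was 0.1 for each of the 3 pairs, also after adjustment over the 3, which is the smallest that 3 arrays against 3 can give. Quantile normalisation and cyclic loess kept the direction of all 3 changes.

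**Figure D2:**
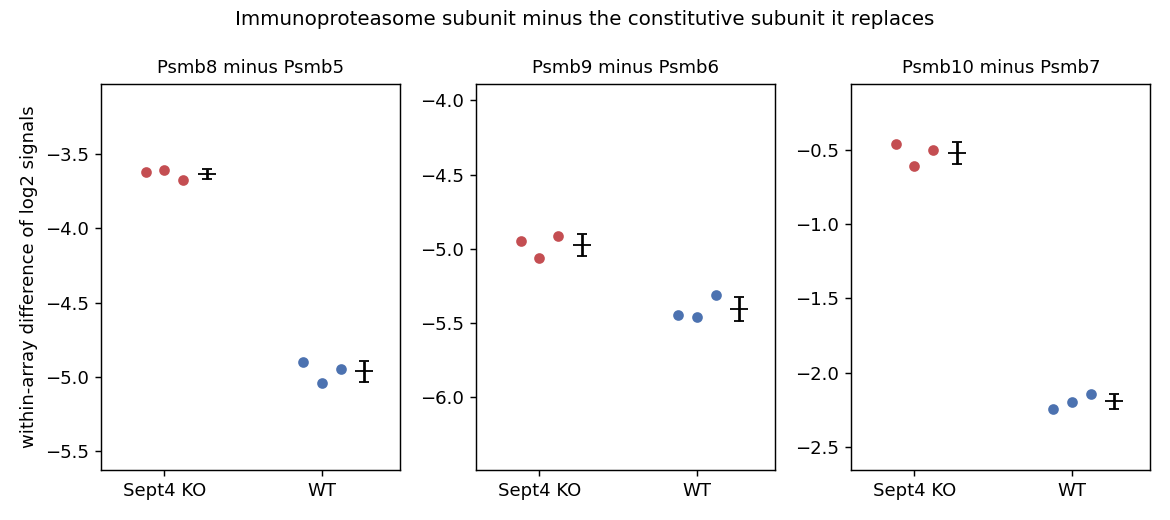
Within-array difference of the log2 signals of each immunoproteasome subunit and the constitutive subunit it replaces, on 3 Sept4 knockout arrays (red, left) and 3 wild-type arrays (blue, right), with mean and SD in black. The knockout arrays lie above the wild-type arrays in each panel, by 1.33, 0.43 and 1.67 from left to right.

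Structural subunits of the core particle mostly rose as deposited, and few did after rescaling. Of 11 structural subunits of the 20S core, 9 were measured, 7 rose and 1 fell, with a median difference of 0.25. As deposited, 26.7% of all probes rose and 16.0% fell. In the brighter portion of probes described for the members, where all 9 lay, 49.0% rose. The 4 measured assembly factors, given below, also lay there. After quantile normalisation 2 of the 9 rose and 1 fell, with a median of 0.05, against 22.3% of all probes that rose. Psma4 and Psmb4, an outer-ring and an inner-ring subunit, rose by 0.67 and 0.62, and by 0.46 and 0.43 after quantile normalisation. Psma6, Psma3, Psma1 and Psma7 rose by 0.31, 0.27, 0.25 and 0.23, none of which passed after quantile normalisation, where Psma7 differed by -0.02. With 1 array left out, the call of Psma1 was lost without each knockout array or wild-type replicate 2, at adjusted p values of 0.0518 to 0.0641 in limma, and that of Psma3 without knockout replicate 2 or wild-type replicate 2, at 0.0532 each. Psma2, named after its value was seen, fell by 0.20. Of 5 assembly factors, 4 were measured and 3 rose: Psmg2 (annotated as Tnfsf5ip1) by 0.72, Psmg3 (1810042K04Rik) by 0.39 and Psmg1 (Dscr2) by 0.19. The rise of Psmg1 did not pass when any 1 array other than wild-type replicate 1 was left out, at adjusted p values of 0.0892 to 0.133 in limma, and after quantile normalisation it differed by 0.02 (adjusted p = 0.773).

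Psme1, the alpha subunit of the PA28 activator, also rose. Its signals were 9.72, 9.64 and 9.62 in knockout cells and 8.66, 8.57 and 8.60 in wild-type cells, with no overlap. The difference was 1.05 ± 0.05 (SE), or 2.07-fold (limma, adjusted p = 0.000483). Of the other activators, Psme4, which encodes PA200, rose by 0.20 (adjusted p = 0.0261), and by 0.11 (adjusted p = 0.126) after quantile normalisation. Its call was lost when any 1 of the 6 arrays was left out, at adjusted p values of 0.0521 to 0.0898. The inhibitor gene Psmf1 differed by -0.07 (adjusted p = 0.295). The first 30 transcribed bases of Psme1, chr14:55578494-55578523 on the + strand of GRCm38.p6 in RefSeq, are shown because they held the core of the interferon-stimulated response element, the pattern of interferon regulatory factors, searched as GAAA, any 2 bases and GAAA on both strands. Capitals mark the match, here on the opposite strand.
Psme1: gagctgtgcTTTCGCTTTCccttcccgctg
This core occurred in 3.44% of the 32841 windows and in 2 of the 9 member windows, those of Psme1 and B2m.

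Of the transporter genes, Tap2 rose and Tap1 did not pass. Tap2 had signals of 8.06, 8.09 and 8.18 in knockout cells, against 7.60, 7.55 and 7.51 in wild-type cells. The groups did not overlap, and the difference was 0.56 ± 0.06 (SE), or 1.47-fold (limma, adjusted p = 0.00163). Tap1 was dim, with both group means below the array median and signals of 4.94, 5.08 and 4.67 in knockout cells and 4.64, 4.47 and 4.67 in wild-type cells. Knockout replicate 3 and wild-type replicate 3 were equal to 2 decimals, so the groups overlapped. Its difference was 0.30, with a 95% confidence interval of -0.02 to 0.63 (adjusted p = 0.118). Without knockout replicate 3 the difference was 0.42 and the adjusted p 0.0346.

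Psmb9 and Tap1 are transcribed away from each other, and their RefSeq promoter windows shared 275 bases. The 225 bases between their start sites, chr17:34187331-34187555 on the + strand of GRCm38.p6, are shown because 1 short stretch precedes both genes. Capitals mark a CCAAT box, the pattern bound by the factor NF-Y, searched as CCAAT on both strands.
Psmb9-Tap1: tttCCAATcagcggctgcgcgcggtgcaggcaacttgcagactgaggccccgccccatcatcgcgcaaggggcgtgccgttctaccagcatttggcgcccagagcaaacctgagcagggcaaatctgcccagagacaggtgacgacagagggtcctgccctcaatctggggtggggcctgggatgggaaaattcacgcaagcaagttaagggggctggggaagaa
Windows with a CCAAT box made up 37.4% of all windows and 4 of the 9 member windows, those of B2m, Psmb9, Tap1 and Tapbp. The windows of Psmb9 and Tap1 hold the same box, which is counted in both. The stretch held neither the interferon-stimulated core nor the gamma-activated pattern, which says only that these letters are not in it. The intervals of the differences of Psmb9 and Tap1 overlapped, and that of Tap1 was wider.

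Tapasin (Tapbp), the bridge between the transporter and class I molecules, had signals of 8.21, 8.06 and 8.19 in knockout cells, against 7.65, 7.67 and 7.58 in wild-type cells. There was no overlap, and the difference was 0.52 ± 0.06 (SE), or 1.43-fold (limma, adjusted p = 0.00255). The related editor Tapbpl, which acts outside that complex, rose by 0.66 ± 0.08 (SE), at an adjusted limma p of 0.00243.

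B2m, the class I light chain, was among the brightest probes of the array. Its signals were 16.13, 16.11 and 16.12 in knockout cells and 15.64, 15.53 and 15.43 in wild-type cells. The knockout arrays were nearly equal and all lay above the wild-type arrays, with a difference of 0.59 ± 0.07 (SE), or 1.51-fold (limma, adjusted p = 0.00220). The highest values of the arrays were also higher in the knockout. After quantile normalisation, which makes those highest values equal, B2m differed by 0.13 (adjusted p = 0.110), and after cyclic loess by 0.24 (adjusted p = 0.0177). The rise of B2m thus depends on the scaling, and of the 7 members that rose it was the one that did not pass after quantile normalisation. The 250 bases upstream of its RefSeq start site, chr2:122147437-122147686 on the + strand of GRCm38.p6, are shown because they held both the interferon-stimulated core and a CCAAT box (as ATTGG on this strand), marked in capitals in that order.
B2m: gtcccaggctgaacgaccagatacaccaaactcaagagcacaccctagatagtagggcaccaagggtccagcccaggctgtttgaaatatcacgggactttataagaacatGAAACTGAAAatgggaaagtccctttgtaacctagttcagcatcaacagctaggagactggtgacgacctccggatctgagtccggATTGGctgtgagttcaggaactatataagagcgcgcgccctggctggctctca
Other patterns were more common: the GC box, searched as GGGCGG, occurred in 35.7% of all windows and in 6 of the 9 member windows, and a loose kappa B pattern, GGG, any 5 bases and CC, in 50.8% and in 6. Both counts of 6 include a pair of overlapping windows of Psme2 and the overlapping windows of Psmb9 and Tap1, which share their GC box. Matches of these GC-rich patterns can overlap each other.

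**Figure D3:**
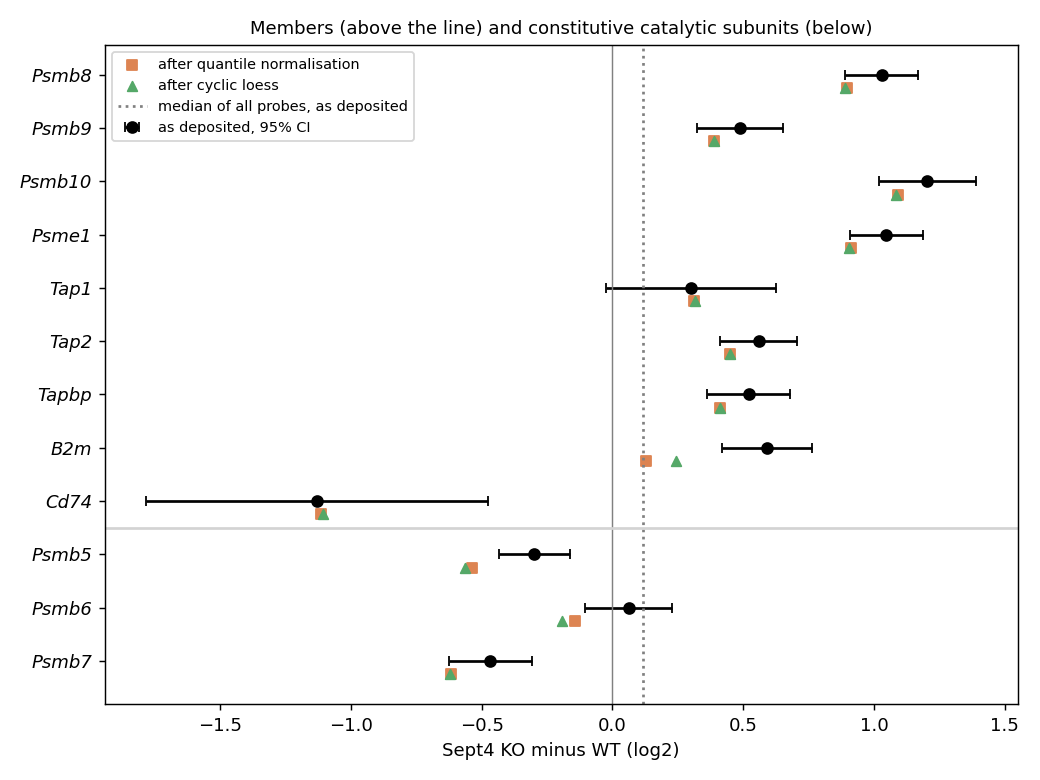
Knockout minus wild-type difference (log2) with its 95% confidence interval as deposited (black), and the difference after quantile normalisation (orange squares) and cyclic loess (green triangles), for the 9 members and, below the grey line, the 3 constitutive catalytic subunits; the dotted line is the median of all probes, 0.12. B2m moves to 0.13 and 0.24 after rescaling, while Psmb8, Psmb10 and Psme1 stay at 0.89 or above.

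Other proteins of the class I pathway moved both ways. Of 11 chaperones and peptide-trimming enzymes, all measured, 5 rose and 4 fell, with a median of 0.17. As deposited, 26.7% of all probes rose and 16.0% fell. In the brighter portion of probes described for the members, where all 11 lay, 49.0% rose, and 5 rises of 11 are near that share. After quantile normalisation 4 of the 11 rose and 4 fell, against 22.3% of all probes that rose. Canx, which encodes calnexin, a chaperone of class I heavy chains, fell by 0.49 ± 0.07 (SE), at an adjusted limma p of 0.00374. Erap1 (annotated as Arts1), which trims peptides inside the endoplasmic reticulum, fell by 0.38, with signals of 8.24 to 8.50 in knockout cells and 8.65 to 8.81 in wild-type cells. Its call was lost without knockout replicate 2, wild-type replicate 2 or wild-type replicate 3, at adjusted p values of 0.0632 to 0.0728 in limma. Calr and Pdia3, which sit with tapasin in the peptide-loading complex and are named after their values were seen, fell by 0.25 and 0.28. Without that block, the complex thus held members that rose, Tapbp and Tap2, and members that fell, Calr and Pdia3. Among the rises, the general chaperone gene Hspa5 rose by 0.75, the cytosolic aminopeptidase gene Blmh by 0.59 and the aminopeptidase gene Lnpep by 0.38. After quantile normalisation these 3 rises were smaller, at 0.43, 0.41 and 0.28. None of the 22 class I heavy chain symbols searched had a probe of that name, so heavy chains were not analysed here.

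Cd74, the class II invariant chain, moved against the other members. It was dim, with signals of 3.68, 3.79 and 3.17 in knockout cells and 4.69, 4.30 and 5.04 in wild-type cells. The groups did not overlap, but the spread was the widest of the 9 members, with SDs of 0.33 in knockout and 0.37 in wild-type cells. Cd74 fell by 1.13 ± 0.26 (SE), or 2.19-fold (limma, adjusted p = 0.0198). The call was lost without wild-type replicate 1, at an adjusted p of 0.0616, and without wild-type replicate 3, at 0.0517. Of 14 genes of class II chains and loading, 5 were measured, 1 rose and 2 fell, and after quantile normalisation 1 rose and 3 fell. As deposited, 26.7% of all probes rose and 16.0% fell. The class II chain gene H2-Aa (annotated as H2Aa) had signals of 5.04 to 5.05 in knockout cells and 4.78 to 5.16 in wild-type cells, with a difference of 0.10 (adjusted p = 0.517). The endosomal protease gene Lgmn rose by 0.62, whereas the thiol reductase gene Ifi30 and the protease gene Ctss, which degrades the invariant chain, fell by 0.28 and 0.19. The fall of Ctss did not pass when any 1 array other than knockout replicate 3 was left out, at adjusted p values of 0.0589 to 0.114 in limma. The fall of Ifi30 did not pass without knockout replicate 2, at 0.0527, or wild-type replicate 2, at 0.0554.

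Markers of other cell types, among them those that carry class II, moved in different ways. The counts below stand beside 26.7% of all probes that rose and 16.0% that fell. Of 14 macrophage markers, 13 were measured, 2 rose and 3 fell, and their summed linear signal was 4413 to 4460 on knockout arrays and 4084 to 4344 on wild-type arrays. Within that list the Fc receptor chain gene Fcer1g rose by 0.74 and the Kupffer cell lectin gene Clec4f by 0.52, whereas Adgre1, the F4/80 antigen, fell by 1.27, Cd14 by 1.01 and the adaptor gene Tyrobp by 0.26. Of 9 dendritic cell markers, all measured, 4 rose and 1 fell. Their summed signal was 218 to 241 on knockout and 149 to 162 on wild-type arrays. That difference came mostly from Itgax, which rose by 1.01. Of 7 B cell markers, 6 were measured and 2 rose. Their sum was 322 to 346 on knockout and 218 to 233 on wild-type arrays. That difference came mostly from Blnk, which rose by 0.67. For 6 pan-leukocyte markers, of which 2 rose and 1 fell, the sum was 974 to 1039 on knockout and 957 to 980 on wild-type arrays. For T and NK cells 8 of 10 markers were measured, 1 rose and 2 fell, and the sum was 98.7 to 123 on knockout and 101 to 108 on wild-type arrays. Sinusoidal endothelium had 8 of 9 markers measured, of which 2 rose (Oit3, by 0.75, and Fcgr2b, by 1.13). The sum was 366 to 392 on knockout and 288 to 320 on wild-type arrays, a difference that came mostly from these 2. Of 9 markers of portal fibroblasts and mesothelium, 8 were measured, 1 rose and 1 fell (Thy1, by 2.24). Their sum was 253 to 284 on knockout and 369 to 392 on wild-type arrays, a difference that came mostly from Thy1. Of 6 cholangiocyte markers, 5 were measured, 1 fell (Spp1, by 1.26) and 4 did not pass. Their sum was 533 to 565 on knockout and 1116 to 1218 on wild-type arrays. That difference came mostly from Spp1, which averaged 8.86 in knockout and 10.12 in wild-type cells. Of 9 hepatocyte markers, 8 were measured, 2 rose, among them Alb by 0.88, and 1 fell, with a sum of 1144 to 1200 on knockout and 1111 to 1167 on wild-type arrays. No marker of these lists lay at the lowest value on all 6 arrays, but some calls rest on values at the floor. Among dendritic cell markers, Xcr1, which rose, lay there on 1 wild-type array, and Clec9a, which fell, on 1 knockout array. Cd3g, the T cell marker that rose, lay there on 2 wild-type arrays. The lowest values were 0.31 to 0.32 on knockout arrays and 0 to 0.22 on wild-type arrays. Their part in the differences of the members was not tested.

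Of 23 genes that regulate antigen presentation, 22 were measured, 16 rose and 2 fell, with a median difference of 0.29. Over all probes 26.7% rose, and 49.0% did in the brighter 50%. After quantile normalisation 12 of the 22 rose and 2 fell, with a median of 0.20, against 22.3% of all probes that rose. Irf8, an interferon regulatory factor of myeloid cells, had signals of 7.25, 7.27 and 7.30 in knockout cells and 6.56, 6.26 and 6.26 in wild-type cells, and rose by 0.92 ± 0.10 (SE), at an adjusted limma p of 0.00180. Rfxank, part of the RFX complex on class I and class II promoters, rose by 0.78, and Nfyc, a subunit of NF-Y, by 0.66. Stat2, which carries signals of type I interferons, rose by 0.59. Both chains of the interferon gamma receptor, Ifngr1 and Ifngr2, rose by 0.55 each.

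Some other genes of that list are named here after their values were seen, and the rest are given only by the counts above. The ligand gene Ifng was dim, with signals of 2.69 to 3.90 in knockout cells and 2.92 to 3.60 in wild-type cells, with a difference of -0.06 (limma, adjusted p = 0.905). Irf1, which acts on the promoters of several of these genes, rose by 0.29, and the class II transactivator Ciita (annotated as C2ta), although dim, by 0.46. The class I transactivator Nlrc5 (AK220210) differed by 0.25 (limma, adjusted p = 0.222). The receptor kinase gene Jak2 fell by 0.44 and the NF-kappa B subunit gene Rela by 0.45, the 2 falls of the list. The related genes Jak1 and Nfkb1 rose by 0.36 and 0.17. Ciita thus rose while Cd74, a gene it is known to control, fell. Both were dim, and the call of Cd74 was lost without wild-type replicate 1 or 3.

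**Figure D4:**
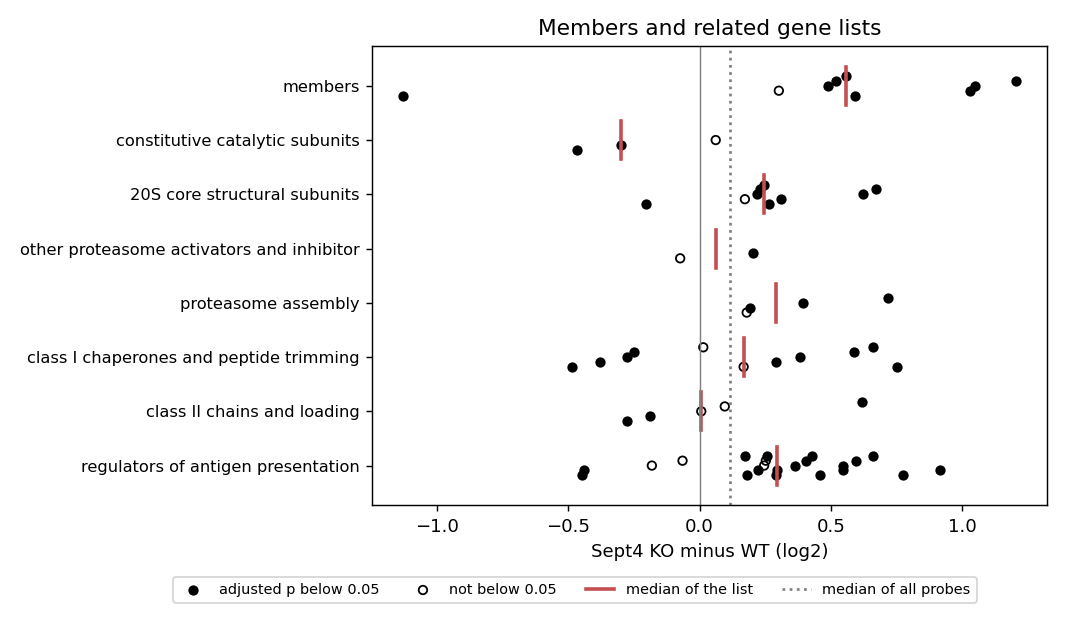
Knockout minus wild-type difference (log2) of each measured gene, by list, with filled points for an adjusted p below 0.05, open points for the others, a red bar at the median of each list and a dotted line at the median of all probes. The median of the members is 0.56, that of the constitutive catalytic subunits is -0.30 and the other medians lie between 0.01 and 0.29.

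In the gene order of the mouse genome, Psmb9, Tap1, Psmb8 and Tap2 lie side by side within the class II region of the major histocompatibility complex. Of the 15 protein-coding genes on each side of these 4 genes, 17 were measured in all, of which 5 rose, 3 fell and 9 did not pass, with a median difference of 0.26. These counts lie near the shares over all probes, of which 26.7% rose and 16.0% fell. The nearest measured gene on one side, the chromatin reader gene Brd2, rose by 0.36, and the nearest on the other, H2-Aa, did not pass. The largest rise among those neighbours that passed was that of the ubiquitin ligase gene Rnf5, by 0.77, and the largest fall that of the retinoid receptor gene Rxrb, by 0.70. These neighbours are named after their values were seen. Tapbp lies on the same chromosome, before Psmb9 in this order and beyond the neighbours counted. Psmb10 and Psme1, which with Psmb8 had the largest rises of the members, lie on chromosomes 8 and 14.

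For Psmb10, the member with the largest difference, the named probes with the most similar array values after removal of each probe's mean were those of the mannosidase gene Man2a1, the proteoglycan gene lumican (Lum) and 2410081M15Rik. Their Euclidean distances over the 6 arrays were 0.0909, 0.0979 and 0.138 log2 units, and they differed by 1.20, 1.24 and 1.23 between the genotypes. The likeness was chosen on these values and is a description.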

How the data were processed

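Messenger RNA was measured on 6 single-colour arrays, 3 of Sept4 knockout and 3 of wild-type stellate cells. Per the labels, the deposited values had been quantile normalised by the authors and the dye was Cy5. The deposited values are log2 signals, with the log base taken from their range. The labels' protocol for labelling speaks of a microRNA kit and of tumours, unlike the design. The sources used here give neither scanner nor background correction. The arrays have equal medians but different upper ends and lowest values. Quantile normalisation over these 6 arrays would have made those equal, so the values do not have the form that the label describes. The platform annotation gave 1 symbol for 16631 probes, none for 6842 and several for 0. Of 16446 symbols, 16384 matched a current symbol in RefSeq (GRCm38.p6), which also gave the promoter windows.

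Differences are knockout minus wild type, from limma 3.58.1 (lmFit, eBayes; R 4.3.3), two-sided, adjusted over all 23473 probes, with 4 residual and 1.11 prior degrees of freedom. Exact permutation tests used scipy 1.17.1. A list gene with several probes took the brightest. The members and lists were chosen with earlier results of these data known. All members were to be named, and from each list up to 6 genes by size among those that passed, or else the 3 with the smallest p. The limma fit was tested on 5 simulated data sets, in which 200 of the 23473 probes changed and the spreads were shuffled among probes. It recovered 24.8% of changes of 0.5 log2 units, 51.6% of those of 1.0 and 63.3% of those of 2.0. Of its calls there, 7.74% were false. In the deposited values 42.7% of probes passed, far more than were changed in the simulation. The shuffled spreads also do not follow brightness, so these rates are not those for the members. The alternatives were quantile normalisation, median centring, cyclic loess, filters on dim probes, a linear offset, a block for the replicate number, array weights, a trended variance prior, omission of each array, and the mean of a gene's probes.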

Additional observations from a re-analysis of the deposited data

How the results depend on the processing

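Under the 17 alternatives to the fit, Psmb8, Psmb9, Psmb10, Psme1, Tap2 and Tapbp rose in each, with differences of 0.89 to 1.06, 0.39 to 0.53, 1.09 to 1.25, 0.90 to 1.08, 0.45 to 0.58 and 0.41 to 0.57. The filters, the variance prior, the replicate block and the mean of probes cannot move these differences, only their p. Median centring hardly moves them, since the array medians were already equal. The count of members that rose was 7, or 6 after quantile normalisation, and 7 to 8 with 1 array left out. The count that fell, which is Cd74 alone, was 0 without the dimmest 50% of probes, since Cd74 and Tap1 are then not tested, and 0 to 1 with 1 array left out. With the replicate number as a block it was 0, because the adjusted p of Cd74 in limma became 0.0859, while the count that rose stayed at 7 and the calls over all probes were 4899 higher and 2825 lower, against 6271 and 3754. The block also ended the calls of Psmb5, at an adjusted p of 0.0544 in limma, and of Psma1, Psma3, Psma7, Psme4, Psmg1, Ctss and Ifi30, at 0.0647 to 0.106, and left 3 of the 20S structural subunits higher and 0 lower. Calr and Pdia3 also lost their calls under the block. Deviations from the group means correlated at -0.00196 to 0.00775 between arrays of the same number, so no shared deviation by number was visible. The sources used here do not say whether the numbers pair the samples, and these correlations cannot settle it. After quantile normalisation the change of Psmb8 minus Psmb5 was 1.43 and that of Psmb9 minus Psmb6 0.53, and after cyclic loess 1.46 and 0.58. With 1 array left out the changes were 1.29 to 1.36, 0.40 to 0.48 and, for Psmb10 minus Psmb7, 1.64 to 1.71. Psma7 and Psmb6 turned to -0.0166 and -0.14 after quantile normalisation and to -0.00366 and -0.19 after cyclic loess. The share of calls that were higher was 62.6% in the deposited values, and became 52.5% with quantile normalisation and 51.5% with cyclic loess. The group means of Cd74 and Tap1 lie below the array median, where the spread between arrays was wider than for the brighter members, and B2m lies near the top of the range.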
